A study of Rattus norvegicus with 6 samples.

Results

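The genes described here are 9 of the 38445 genes counted in the rat amygdala, chosen by symbol: the pyruvate dehydrogenase kinases Pdk1, Pdk2, Pdk3 and Pdk4, the phosphatases Pdp1 and Pdp2, the enzyme subunit Pdha1 on which both act, and the lipid genes Cpt1a and Angptl4. All 9 were found in the count files and all 9 passed the filter on low counts. Adult male Sprague Dawley rats were injected intraperitoneally with saline (control) or with ethanol at 1 g/kg (acute ethanol), and the amygdala was collected 1 h later. Each library held RNA pooled from 2 rats, so that 6 rats per group gave 3 control and 3 ethanol libraries, and p-values refer to the spread between these pools. The genes were picked with earlier results of the ethanol comparison known, so their differences between the groups are given as a description, with the p-values of the fit over all genes beside them.

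The pyruvate dehydrogenase complex is the mitochondrial gate through which pyruvate from glucose enters the citric acid cycle as acetyl-CoA. The kinases phosphorylate its E1 alpha subunit, encoded by Pdha1, and switch the complex off, while the phosphatases remove the phosphate and switch it on. Cpt1a encodes the liver-type carnitine palmitoyltransferase of the outer mitochondrial membrane, the entry step for long-chain fatty acids, and Angptl4 a secreted inhibitor of lipoprotein lipase. Pdk4 is known as the kinase isoform induced by fasting, glucocorticoids and fatty acid-activated nuclear receptors, and Angptl4 responds to several of the same signals and to low oxygen. In the brain, glucose is the main fuel, and fatty acid oxidation is mostly attributed to astrocytes.

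The 2 kinase genes at the opposite ends of the level range, Pdk4 and Pdk2, are shown here by the sequence in front of their starts, taken from RefSeq on the GRCr8 build. The Pdk4 stretch is chr4:34568330-34568579 on the minus strand, the 250 bases before the start. The Pdk2 stretch is chr10:80483989-80484162, also minus, limited to the 174 bases that lie outside the annotated gene. Capitals mark the CCAAT box, which reads ATTGG on the other strand, and the core of the hypoxia response element, ACGTG or CACGT, whose overlapping copies on both strands in Pdk2 spell CACGTG.
Pdk4: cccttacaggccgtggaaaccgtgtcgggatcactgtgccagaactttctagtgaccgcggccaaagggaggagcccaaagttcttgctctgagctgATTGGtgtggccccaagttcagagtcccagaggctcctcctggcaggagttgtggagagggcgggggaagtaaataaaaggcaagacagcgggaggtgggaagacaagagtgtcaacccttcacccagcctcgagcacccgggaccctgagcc
Pdk2: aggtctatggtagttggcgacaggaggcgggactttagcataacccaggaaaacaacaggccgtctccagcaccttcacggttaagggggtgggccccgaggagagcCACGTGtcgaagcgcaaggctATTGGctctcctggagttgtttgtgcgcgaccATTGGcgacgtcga

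Promoter sequences were matched for 7 of the 9 genes, all but Pdp1 and Pdp2. In the 250 bases before the start, ACGTG was present on either strand in Pdk2, Pdk3 and Angptl4, and in 16.6% of 33469 promoters. The CCAAT box was present in Pdk2, Pdk3 and Pdk4, and in 34.0% of all promoters, and TATAAA in Angptl4 and in 12.9% of all promoters. For Pdk2, 76 of the 250 bases searched lie inside the annotated gene and were left out of the stretch shown. Its CCAAT box at 59 to 55 bases before the start lies among them. The glucocorticoid response word AGAACA, the nuclear receptor word AGGTCA and the FOXO word GTAAACA were in none of the 7 windows, against 17.5%, 14.1% and 3.21% of all promoters. These letters are a description of short windows and say nothing about factor binding.

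In these amygdala libraries, Pdk2 was the most abundant kinase RNA and Pdk4 the least abundant. Levels were compared between genes per length, in reads scaled by library size and exon length (RPKM). Over the 6 libraries, the level of Pdk2 was 73.3 ± 6.81 RPKM (SD, n = 6), that of Pdha1 69.0 ± 3.4 RPKM, that of Pdp1 21.3 ± 1.79 RPKM and that of Pdk1 17.1 ± 0.916 RPKM. Pdk3 followed at 13.4 ± 1.05 RPKM, Cpt1a at 11.1 ± 0.835 RPKM, Angptl4 at 6.96 ± 0.908 RPKM, Pdk4 at 4.15 ± 1.93 RPKM and Pdp2 at 3.2 ± 0.253 RPKM. Neighbours in this order were compared within libraries by a 2-sided exact sign-flip permutation test over 6 libraries, for which the smallest possible p is 0.0312. The pairs were taken from the order of the same 6 libraries, with both groups pooled, so the p-values are no independent test of that order. Of the 8 neighbouring pairs, 5 were ordered alike in 6 of 6 libraries (Pdha1 above Pdp1, Pdp1 above Pdk1, Pdk1 above Pdk3, Pdk3 above Cpt1a and Cpt1a above Angptl4), each with an exact p of 0.0312 and 0.05 after Benjamini-Hochberg adjustment over the 8 pairs. Pdk3 exceeded Cpt1a by 0.27 on the log2 scale on average, but by only 0.0 to 0.56 in single libraries. Pdk2 and Pdha1 did not differ beyond their spread, with a mean log2 difference of 0.08 ± 0.15 (SD, n = 6, exact permutation p = 0.312). Angptl4 exceeded Pdk4 in 5 of 6 libraries (exact p = 0.0625), and Pdk4 exceeded Pdp2 in 3 of 6 (exact p = 0.438). By group means the last place turned, since the mean of Pdk4 was 2.79 RPKM in controls, below the 3.0 RPKM of Pdp2, and 5.52 RPKM after ethanol, above the 3.41 RPKM of Pdp2. Single libraries did not all follow: Pdk4 was above Pdp2 in control 3 (2.94 against 2.79 RPKM). In ethanol 1 it was below Pdp2 (3.35 against 3.44 RPKM). The order of the 9 mean levels over both groups stayed the same when any 1 library was left out.

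Pdk4 encodes the fasting-responsive kinase isoform and spans bases 30546772 to 30556774 of chromosome 4 (build Rnor_6.0, used for all gene positions here), with 1425 exonic bases in 11 blocks. Control libraries held 269, 256 and 266 Pdk4 reads, which is 4.11, 3.6 and 4.2 CPM (read counts scaled to library size by TMM). Ethanol libraries held 306, 644 and 613 reads, which is 4.77, 10.0 and 8.81 CPM. All 3 ethanol libraries lay above all 3 controls, but ethanol 1 stood only slightly above the highest control, while ethanol 2 and ethanol 3 stood far above it. The mean level was 3.97 ± 0.32 CPM in controls and 7.86 ± 2.75 CPM after ethanol (each SD, n = 3), a ratio of 1.98. The log2 fold change was 0.99 with a standard error of 0.25, and the unadjusted p of 0.00491 became 0.923 after Benjamini-Hochberg adjustment over 18141 genes (edgeR's quasi-likelihood test), so that the difference did not pass the study's threshold of 0.2. Pdk4 ranked 96 by p among the genes tested. By DESeq2 its adjusted p was 0.0439, by the likelihood ratio test of edgeR 0.107 and by limma-voom 0.943. Without ethanol 1, the ethanol library nearest the controls, the quasi-likelihood test gave 0.162 at a log2 fold change of 1.24. With any other library left out, the same test gave 0.464 (without ethanol 3) or more. The log2 fold change was 0.78 without ethanol 2. The fitted coefficient of variation of Pdk4, 1 value for both groups, was 22.5%, above that of 90.3% of the genes tested. Within groups, the coefficient of variation of its CPM was 8.07% in controls and 34.9% after ethanol.

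**Figure D1:**
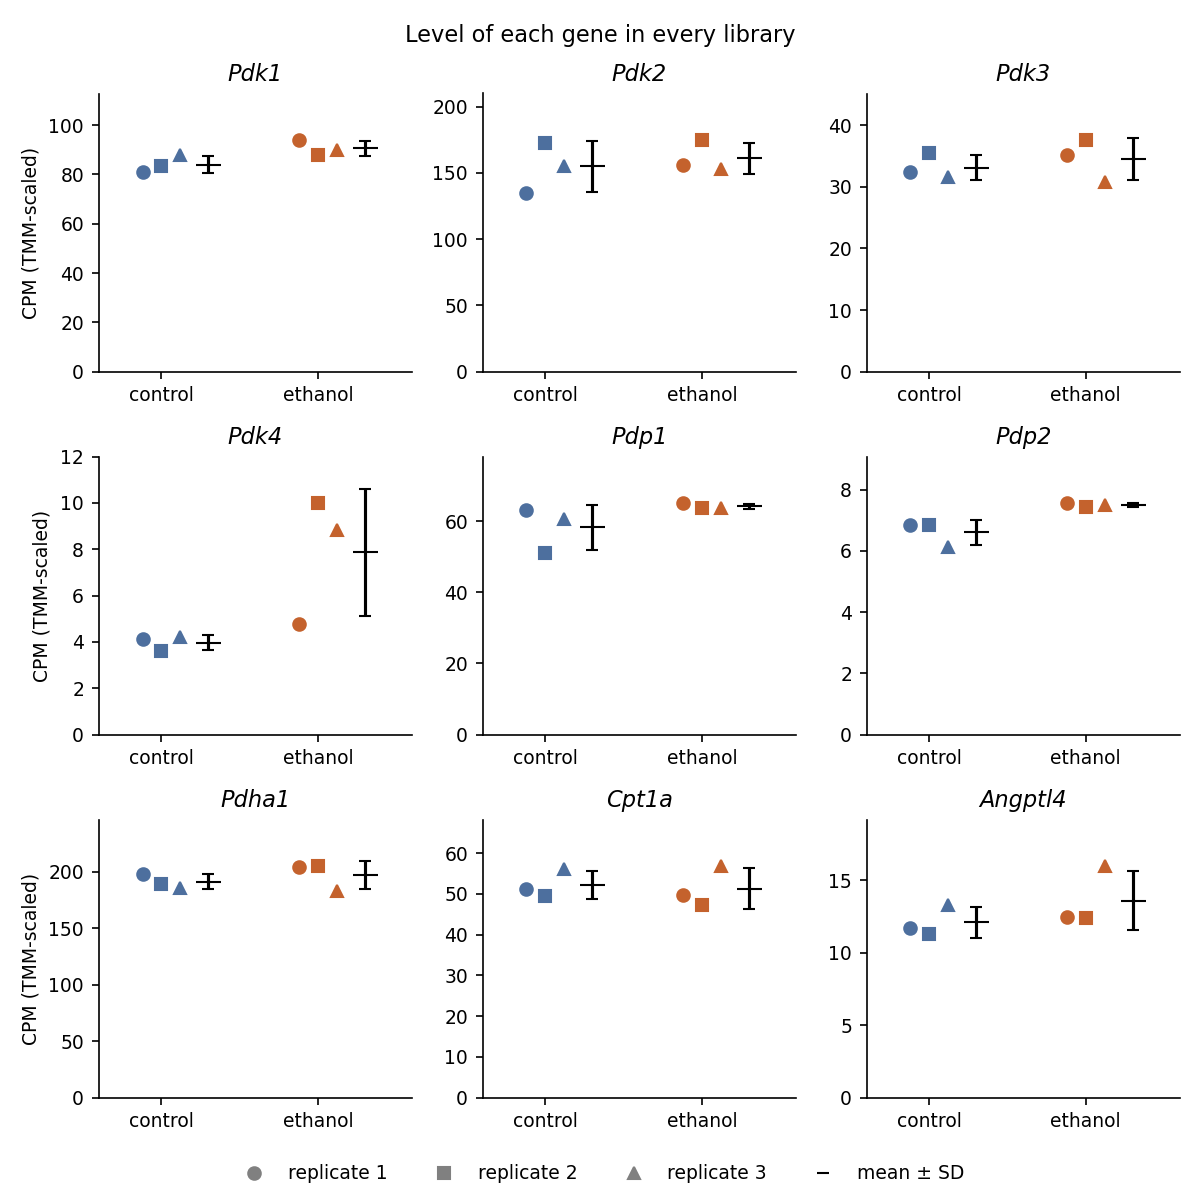
Level of each of the 9 genes in CPM (TMM-scaled, linear axes from 0) in the 3 control and 3 ethanol libraries, one point per library with the replicate number as its shape, and the mean ± SD of each group in black. Pdk4 reaches 10.0 and 8.81 CPM in ethanol 2 and ethanol 3 and stays at 4.77 CPM in ethanol 1, against 3.6 to 4.2 CPM in controls, whereas the other panels show groups that overlap or lie next to each other.

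The other kinases differed little between the groups. Pdk1, the isoform known for its response to low oxygen (chromosome 3, from 58530870 to 58561494), was at 80.9, 83.2 and 87.7 CPM in controls and 94.0, 88.0 and 89.8 CPM after ethanol. Its groups did not overlap, although the lowest ethanol library exceeded the highest control by less than 1 CPM, and the log2 fold change was 0.11 (standard error 0.06, unadjusted p = 0.0921, adjusted p = 1.0, edgeR's quasi-likelihood test). Pdk2, the widely expressed isoform (chromosome 10, from 82838270 to 82852758), was at 135, 173 and 155 CPM in controls and 156, 175 and 153 CPM after ethanol. The spread of Pdk2 among the controls alone was larger than the difference between the group means, and the log2 fold change was 0.06 (standard error 0.1, adjusted p = 1.0, same edgeR test). Pdk3, the X-linked isoform (from 62836131 to 62904114), was at 32.4, 35.4 and 31.5 CPM in controls and 35.1, 37.6 and 30.8 CPM after ethanol. The log2 fold change was 0.06 (standard error 0.09, adjusted p = 1.0, same edgeR test). For Pdk3 the lowest of the 6 libraries was ethanol 3 and the highest ethanol 2.

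Per length, Pdk2 made up 68.9 ± 2.23% (SD, n = 3) of the summed RPKM of the 4 kinases in controls and 67.0 ± 0.534% after ethanol. Pdk1 made up 15.8 ± 1.31% and 15.9 ± 1.42%, and Pdk3 12.6 ± 0.858% and 12.2 ± 0.746%. The share of Pdk4 was 3.06%, 2.23% and 2.82% in control libraries 1 to 3 and 3.1%, 5.84% and 5.78% in ethanol libraries 1 to 3. Thus ethanol 1 had nearly the share of control 1, and the other ethanol libraries had higher shares. The difference between the group means was 2.21 percentage points, and 1.74 to 3.11 when any 1 library was left out. For shares of the raw reads, not divided by length, it was 1.21 percentage points. The summed kinase level was 104 ± 9.54 RPKM in controls and 112 ± 7.43 RPKM after ethanol, with overlapping libraries (94.4 to 113 against 107 to 120 RPKM).

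**Figure D2:**
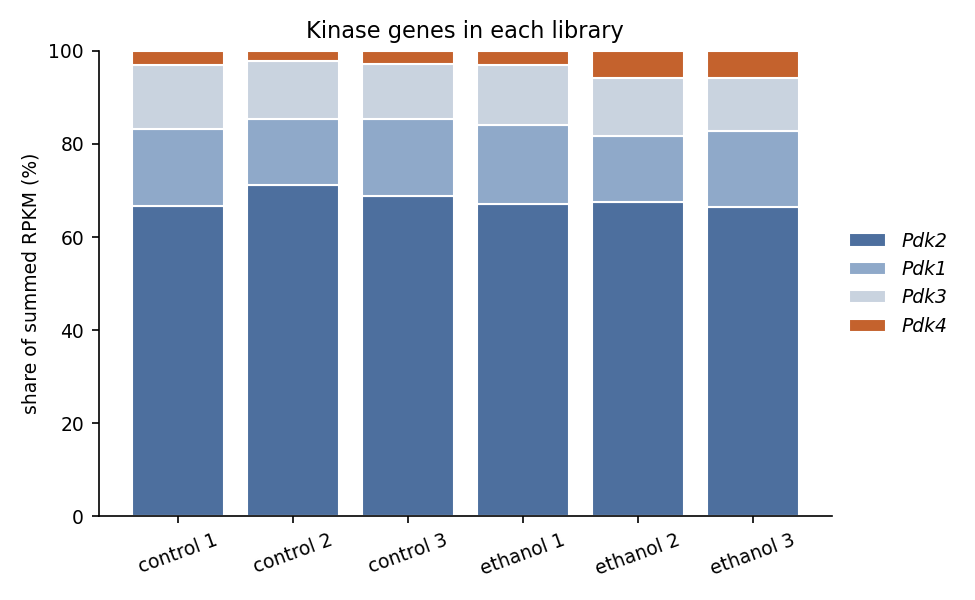
Share of each kinase gene in the summed RPKM of the 4 kinases (vertical axis, percent) in each of the 6 libraries (horizontal axis), as stacked bars from 0 to 100%. Pdk2 fills 66.4% to 71.1% of every bar, and Pdk4 fills 2.23% to 3.1% in 4 libraries and 5.84% and 5.78% in ethanol 2 and ethanol 3.

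The phosphatases that oppose the kinases were slightly higher after ethanol, within the range that the test could not separate. Pdp1, the calcium-stimulated isoform (chromosome 5, from 25577593 to 25584325), was at 63.1, 51.1 and 60.5 CPM in controls and 65.1, 63.6 and 63.7 CPM after ethanol. The highest control nearly reached the lowest ethanol library, and the log2 fold change was 0.14 (standard error 0.08, unadjusted p = 0.129, adjusted p = 1.0, edgeR's quasi-likelihood test). Without control 2, the lowest library, the log2 fold change of Pdp1 was 0.05. Pdp2, the less abundant isoform (chromosome 19, from 597427 to 601556), was at 6.85, 6.84 and 6.14 CPM in controls and 7.57, 7.43 and 7.51 CPM after ethanol. Its log2 fold change was 0.18 (standard error 0.09, unadjusted p = 0.0846, adjusted p = 1.0, same edgeR test), and the 3 ethanol libraries differed among themselves by a coefficient of variation of only 0.956%, against 6.22% in controls. The ratio of the summed kinase RPKM to the summed phosphatase RPKM was 4.53 ± 0.84 (SD, n = 3) in controls and 4.35 ± 0.32 after ethanol, with the extremes of all 6 libraries, 3.77 and 5.43, both in control libraries. Per length, Pdp1 exceeded Pdp2 by 5.72-fold to 7.55-fold in the 6 libraries.

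Pdha1, the E1 alpha subunit (chromosome X, from 37329779 to 37343410), was at 198, 189 and 185 CPM in controls and 204, 205 and 183 CPM after ethanol. The lowest of the 6 values was in ethanol 3 and the groups overlapped, and the log2 fold change was 0.05 (standard error 0.07, adjusted p = 1.0, edgeR's quasi-likelihood test). Pdha1 shares 608 exonic bases with Map3k15 on the opposite strand, and the counting used strand. A related sequence annotated as a pseudogene, Pdha1l1, was assigned 468 to 583 reads per library. Reads that align to several places had been left out, and their number for Pdha1 was not measured here. No other of the 9 genes shares exonic bases with another gene.

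Among the lipid genes, neither Cpt1a nor Angptl4 differed between the groups by more than the spread of the libraries. Cpt1a (chromosome 1, from 218568157 to 218629679) was at 51.2, 49.4 and 56.2 CPM in controls and 49.7, 47.3 and 56.9 CPM after ethanol. The lowest and the highest of the 6 values were both ethanol libraries, and the log2 fold change was -0.03 (standard error 0.09, adjusted p = 1.0, edgeR's quasi-likelihood test). Its near copy Cpt1al1 received 38 to 54 reads per library. Angptl4 (chromosome 7, from 18627814 to 18634043) was at 11.7, 11.3 and 13.3 CPM in controls and 12.5, 12.4 and 16.0 CPM after ethanol, so that only ethanol 3 lay above the controls. Its log2 fold change was 0.17 (standard error 0.12, unadjusted p = 0.214, adjusted p = 1.0, same edgeR test), and 0.04 without ethanol 3. Of the carnitine palmitoyltransferase isoforms, the brain form Cpt1c held 60.0% to 67.8% of the summed RPKM of the 3 genes, Cpt1a 27.0% to 34.8% and the muscle form Cpt1b 3.75% to 5.37%.

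**Figure D3:**
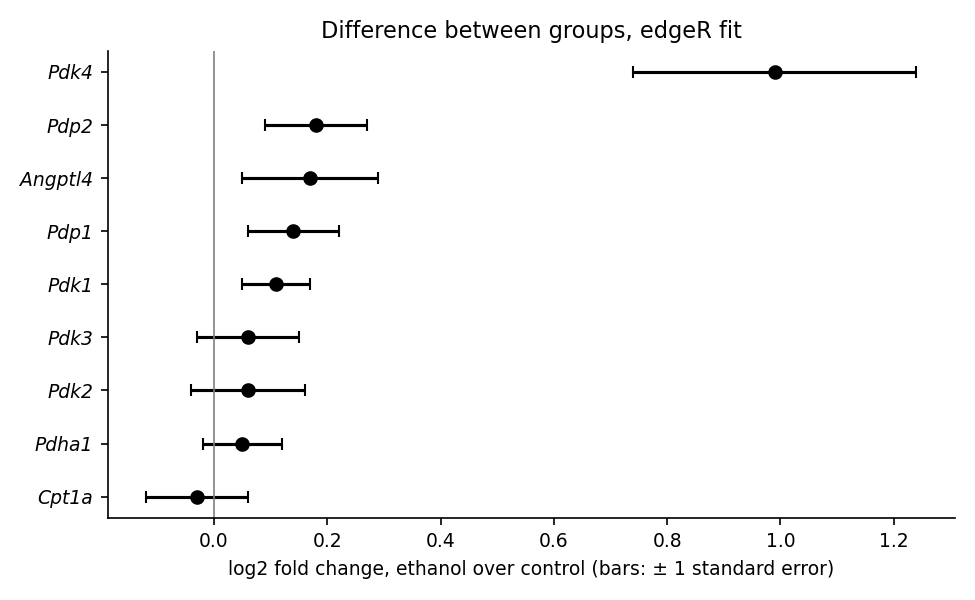
Log2 fold change of each gene, ethanol over control (horizontal axis), with ± 1 standard error from the edgeR fit. Pdk4 stands at 0.99, Pdp2 follows at 0.18, and the lowest, Cpt1a, is at -0.03.

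Counted together, the quasi-likelihood test of edgeR gave an adjusted p below 0.2 for 0 of the 9 genes and for 0.0% of the 18141 genes tested. The study's own RNA-seq analysis did report genes below a false discovery rate of 0.2, Hif3a among them. At an unadjusted p below 0.05, 1 of the 9 was higher after ethanol and 0 lower, against 1.57% and 2.58% of all genes tested (4.15% together). The same count of adjusted calls was 1 with DESeq2 and 1 with edgeR's likelihood ratio test, both for Pdk4, and 0 with limma-voom. These tools called 0.422% and 0.424% of all genes. For 4 of the 9 genes (Pdk1, Pdk4, Pdp1 and Pdp2) all ethanol libraries lay above all controls, against 3.65% of all genes in that direction, 5.19% in the other and 8.85% in either. The fold change was positive for 8 of the 9, and for 52.6% of all genes. Because the genes were chosen with this comparison known, nothing is read from these shares. The median log2 fold change of the 9 genes was 0.11, that of all genes tested 0.00637.

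Summed marker levels of choroid plexus and of cilia and ependyma were lower in all ethanol libraries than in all controls. The summed level of 10 choroid plexus markers was 528 to 1140 CPM in controls and 14.4, 15.7 and 490 CPM in ethanol 1, 2 and 3, with 9 of 9 tested markers lower after ethanol (5 at an unadjusted p below 0.05) and Otx2 at 0 to 1 count per library. The summed level of 8 cilia and ependyma markers was 106 to 154 CPM in controls and 89.7 to 97.3 CPM after ethanol. All 8 were lower after ethanol, 6 at an unadjusted p below 0.05 (edgeR's quasi-likelihood test). Pdk4 was high in ethanol 2 and in ethanol 3, whose choroid plexus sums were 15.7 and 490 CPM, and near the controls in ethanol 1, at 14.4 CPM. The part of this tissue in the Pdk4 values was not tested. Marker sums of endothelium (241 to 270 against 239 to 270 CPM), mural cells (86.1 to 118 against 97.4 to 107 CPM), astrocytes (4910 to 5810 against 5040 to 6570 CPM), microglia (284 to 323 against 293 to 341 CPM), blood cells (94.4 to 167 against 158 to 178 CPM), adipocytes (2.34 to 3.27 against 1.29 to 4.61 CPM), leptomeningeal fibroblasts (57.4 to 114 against 52.0 to 90.2 CPM, Col1a2 at 0 throughout) and oligodendrocytes (3750 to 8750 against 4590 to 10100 CPM) overlapped between the groups. Lower after ethanol were 0 of 8 oligodendrocyte, 1 of 7 astrocyte and 1 of 4 blood cell markers tested. For endothelium it was 5 of 8, for mural cells 3 of 6 and for microglia 3 of 7. For adipocytes it was 2 of 4 and for fibroblasts 4 of 5. Microglia, adipocytes and fibroblasts had 1 marker each at an unadjusted p below 0.05 (edgeR's quasi-likelihood test), the other lists with overlapping sums 0. Whether reads of Col1a2 were lost in alignment or counting was not tested. Ethanol 3, the library with the highest Angptl4 and Cpt1a levels, also had the highest astrocyte and oligodendrocyte sums. Whether these levels follow the cell make-up was not tested. Neuronal markers, among them Snap25, Slc17a7, Gad1 and Gad2, were present in every library at a sum of 3660 to 5080 CPM. In such bulk tissue, fewer cells of a type and less RNA per cell cannot be told apart. Total assigned reads were 62576504 to 70755739 per library, with overlapping groups.

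The profile of Pdk4 over the 6 libraries was compared with that of every other gene tested, as the root mean square difference of log2 CPM centred on the control mean. The 5 nearest genes were Plekhf1 (difference 0.13 on the log2 scale), Sgk1 (0.207), Gpd1 (0.222), Cox6a2 (0.223) and Tmem252 (0.23). Plekhf1, an endosomal PH and FYVE domain protein, was at 3.46, 3.06 and 3.61 CPM in controls and 4.53, 7.88 and 8.91 CPM after ethanol. Sgk1, the serum and glucocorticoid-regulated kinase, was at 69.6, 65.8 and 64.3 CPM in controls and 74.7, 130 and 120 CPM after ethanol. Gpd1, the cytosolic glycerol-3-phosphate dehydrogenase, was at 71.6, 64.2 and 59.4 CPM in controls and 83.2, 119 and 154 CPM after ethanol. All 3 thus shared with Pdk4 a low value in ethanol 1 and higher values in ethanol 2 and ethanol 3. Cox6a2, a muscle-type subunit of cytochrome c oxidase, and Tmem252 were low in abundance, between 0.493 and 3.11 CPM, and for both the value of ethanol 1 lay within the control range. The log2 fold changes of the 5 genes were between 0.7 and 1.08, and none had an adjusted p below 0.2 (edgeR's quasi-likelihood test, lowest 0.818). DESeq2 and the likelihood ratio test of edgeR gave adjusted p-values below 0.2 for 3 of them, Plekhf1 (0.00826 and 0.0259), Sgk1 (0.0447 and 0.0934) and Gpd1 (0.00583 and 0.0194). Without ethanol 1, the quasi-likelihood test did so for Plekhf1 (0.162) and Sgk1 (0.115). With any other library left out, it gave at least 0.369 for Plekhf1 and 0.467 for Sgk1. Likeness to Pdk4 already meant a low value in ethanol 1, so lower p-values without that library followed from the choice of genes. Since the genes were chosen for their likeness over these libraries, this is a description.

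**Figure D4:**
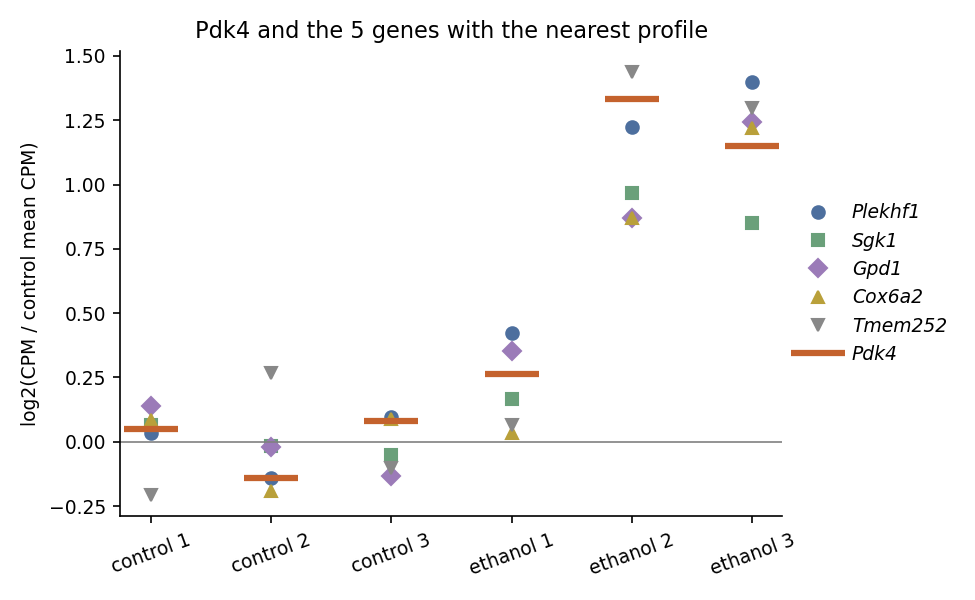
Log2 of the CPM over the mean control CPM (vertical axis) in the 6 libraries (horizontal axis) for Pdk4 (short horizontal lines) and the 5 genes with the smallest root mean square difference from it (points). The values of ethanol 1 lie near those of the controls, and the values of ethanol 2 and ethanol 3 lie higher for all 6 genes, Pdk4 at 10.0 and 8.81 CPM against a control mean of 3.97 CPM.

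Genes around the switch were taken from 4 lists. Of the 16 genes of the pyruvate dehydrogenase complex, its lipoylation and pyruvate supply, 16 were tested and 0 had an adjusted p below 0.2 (edgeR's quasi-likelihood test), with 1 higher and 0 lower at an unadjusted p below 0.05. Their log2 fold changes lay between -0.0819 and 0.232 with a median of 0.00753. The gene with the smallest p was Slc16a7, a monocarboxylate transporter that carries pyruvate and lactate, at 32.0 ± 3.11 CPM among controls and 37.6 ± 3.37 CPM with ethanol (SD, n = 3 each, log2 fold change 0.23, standard error 0.09, unadjusted p = 0.0408, adjusted p = 1.0, same edgeR test). Pyruvate carboxylase, Pc, followed with a log2 fold change of 0.08 (adjusted p = 1.0), and the most abundant gene per length, the lactate dehydrogenase subunit Ldhb, had 0.07 (adjusted p = 1.0).

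Of the 20 genes of the carnitine shuttle and beta oxidation, 19 were tested, and 0 had an adjusted p below 0.2 and 0 an unadjusted p below 0.05 (edgeR's quasi-likelihood test). The median log2 fold change was 0.0152, and 17 of the 19 genes were within 0.15 of 0. Cpt1b was at 6.24 ± 0.417 and 5.2 ± 0.842 CPM (SD, n = 3) in the 2 groups (log2 fold change -0.26, adjusted p = 1.0), and the thiolase gene Acaa2 at 24.7 ± 3.45 and 31.8 ± 8.87 CPM (log2 fold change 0.36, adjusted p = 1.0), with 41.7 CPM in ethanol 3 alone. The log2 fold change of Acaa2 was 0.12 without ethanol 3 and 0.52 without ethanol 2. Hadha, which encodes a subunit of the trifunctional protein and was the most abundant per length, was at 172 ± 4.15 and 170 ± 1.16 CPM. Echs1, the remaining gene, held 0 to 1 count per library. Whether its reads were lost in alignment or counting was not tested.

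Of the 20 genes of lipoprotein lipase, fatty acid uptake and ketone use, 17 were tested, and 0 had an adjusted p below 0.2 and 0 an unadjusted p below 0.05 (edgeR's quasi-likelihood test), with a median log2 fold change of 0.0279. Acsl3, an acyl-CoA synthetase, was at 337, 306 and 337 CPM in controls and 377, 347 and 377 CPM after ethanol (log2 fold change 0.17, standard error 0.07, unadjusted p = 0.0544, adjusted p = 1.0). Its groups did not overlap. Fabp7, the fatty acid-binding protein of astrocytes and radial glia and the most abundant per length, was at 169 ± 14.2 and 147 ± 19.1 CPM (log2 fold change -0.2, adjusted p = 1.0). Among the genes not tested, Gpihbp1, the endothelial anchor of lipoprotein lipase, held 1 to 5 counts per library and the lipase Pnpla2 0 to 1 count. Whether reads of these genes were lost in alignment or counting was not tested. The target of Angptl4, lipoprotein lipase (Lpl), had a log2 fold change of -0.03 with a standard error of 0.22, and this gene was named after its value was seen.

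The last list held 16 genes: nuclear receptors, coregulators and the transcription factors Foxo1, Foxo3, Klf9, Klf15, Hif1a, Hif3a and Epas1. All 16 were tested, and edgeR's quasi-likelihood test gave 0 at an adjusted p below 0.2. At an unadjusted p below 0.05, 3 were higher after ethanol, against 1.57% of all genes in that direction. None of the 3 is a nuclear receptor or coregulator. Klf9, a glucocorticoid-responsive Kruppel-like factor, was at 61.6, 69.2 and 57.9 CPM in controls and 78.3, 96.8 and 91.1 CPM after ethanol (log2 fold change 0.5, standard error 0.1, unadjusted p = 0.00102, adjusted p = 0.818). Hif3a, a hypoxia-inducible factor subunit, was at 0.811, 1.44 and 0.852 CPM in controls and 2.49, 2.13 and 3.55 CPM after ethanol (log2 fold change 1.39, standard error 0.28, unadjusted p = 0.00123, adjusted p = 0.818). For both genes the groups did not overlap, and 1 gene of the list was lower in all ethanol libraries than in all controls. Of all genes tested, 3.65% were higher and 5.19% lower without overlap. DESeq2 and edgeR's likelihood ratio test gave an adjusted p below 0.2 for 2 genes of this list, Klf9 (0.0091 and 0.0142) and Hif3a (0.0059 and 0.0142). These tools called 0.422% and 0.424% of all genes, and limma-voom called 0 of the list. The list was chosen with earlier results of these data known, so nothing is read from these shares. The other gene at an unadjusted p below 0.05 was Klf15, named after its value was seen, with a log2 fold change of 0.34. Epas1, the most abundant per length, had a log2 fold change of 0.17 (adjusted p = 1.0). The receptor genes Ppara, Ppard and Nr3c1, also named after their values were seen, had log2 fold changes of 0.06, 0.07 and -0.02. Pparg, named in the same way and with -0.58 the lowest of the list, was at 0.28 CPM in controls and 0.19 CPM after ethanol, with an unadjusted p of 0.06.

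**Figure D5:**
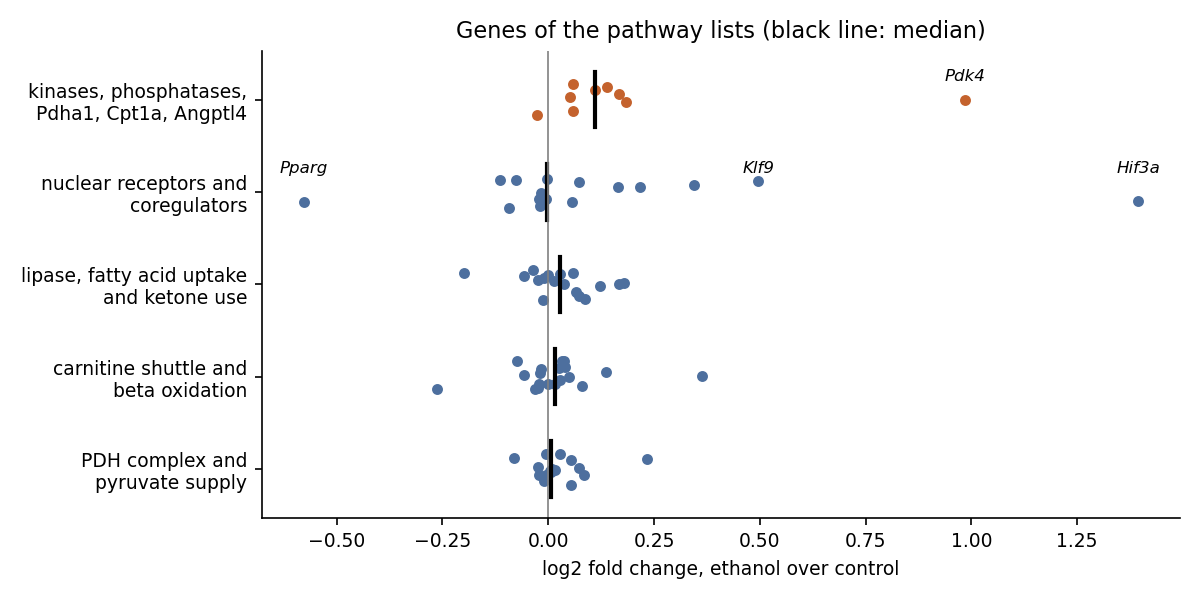
Log2 fold change, ethanol over control (horizontal axis), of each tested gene in the 4 lists and of the 9 genes themselves (rows; vertical position within a row has no meaning), with the median of each row as a black line. The medians of the 4 lists lie between -0.00324 and 0.0279, that of the 9 genes at 0.11, and Pdk4, Klf9, Hif3a and Pparg lie apart from the others.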

How the data were processed

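RNA-seq libraries from amygdala (reads of 100 nt, single-end, stranded mRNA kit) were aligned by the authors to Rnor_6.0. STAR 2.7.0f is among the tools in the submitters' processing notes. Per the file headers, counts were made with featureCounts v1.6.3 in the reverse-stranded setting (2) over exons of NCBI genes, and the authors deposited raw counts. Multi-mapping reads, and reads over more than 1 gene, had not been counted. Symbols were matched through RefSeq for 29322 of 38445 identifiers, and 9123 had none.

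Counts were analysed here in R 4.3.3 with edgeR 4.0.16: filterByExpr at its defaults (10 counts, 15 in total) kept 18141 genes, TMM scaled the libraries (factors 0.9758 to 1.013), and the groups were compared by the quasi-likelihood F test, with p-values adjusted after Benjamini and Hochberg and held to the study's threshold of 0.2. The standard error is the absolute log2 fold change over the square root of F. RPKM used the exon lengths in the files. Log2 CPM carries a prior count of 2. Alternatives used DESeq2 1.42.0, limma 3.58.1 and other scalings and filters. The fits were tested on simulated data. Libraries of one group differed by more than counting error (chi-square per degree of freedom 15.3 to 72.6). A count of 3 corresponds to 0.0424 to 0.0479 CPM, for counting error only.

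The genes and lists were chosen with earlier results of these data known. The genes named are the 9 genes, the 2 genes of each list with the smallest p, the most abundant of each list per length, and the 5 nearest profiles to the gene of the 9 with the smallest p. Any other gene is marked as named after its values were seen.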

Additional observations from a re-analysis of the deposited data

How the results depend on the processing

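The log2 fold change of Pdk4 was 0.92 to 0.99 over the alternative scalings, filters, tools and the block, and 0.78 (without ethanol 2) to 1.24 (without ethanol 1) with 1 library left out. Of the 9 genes, 0 were called by edgeR's quasi-likelihood test, 1 by DESeq2, 1 by edgeR's likelihood ratio test, and 0 to 1 with 1 library left out, the 1 being Pdk4 without ethanol 1. Over all genes the counts were 0 by the quasi-likelihood test, 75 by DESeq2, 77 by the likelihood ratio test and 0 to 83 with 1 library left out, 83 without ethanol 3 and 4 without ethanol 1. In the list of nuclear receptors, coregulators and transcription factors, DESeq2 and the likelihood ratio test called 2 genes each, Klf9 and Hif3a, the quasi-likelihood test 0. The other 3 lists had 0 calls under every alternative run. Library size alone moved the median of all genes from 0.00637 to -0.0201. Of 349 alternative values of the 25 named genes, 343 kept their sign. The 6 that did not were not called. The cause of these differences was not tested.

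The numbers 1, 2 and 3 are shared by both groups, but the libraries come from different rats, and deviations from the group means over 14241 genes correlated by 0.0264, 0.388 and 0.211 for the libraries numbered 1, 2 and 3, so the numbers were not taken to pair the samples. With the replicate number as a block, the quasi-likelihood test called 0 genes and 0 of the 9, with a log2 fold change of 0.93 and an adjusted p of 0.662 for Pdk4. Not every library correlated best with its own number. The values of Pdk4 rest on 256 to 644 counts in each of 3 libraries per group, with a coefficient of variation of 22.5% fitted over both groups.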
